A study of Rattus norvegicus with 164 samples.

Results

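The postsynaptic density is the protein layer beneath the membrane of excitatory synapses, and the RNAs of 9 of its scaffold genes were followed here: Dlg1, Dlg2, Dlg3, Dlg4, Shank1, Shank2, Shank3, Homer1 and Dlgap1. They were chosen by name, as the rows of these symbols in the deposited table of 38354 genes, and all 9 were found and had a mean level high enough to enter the tests, as did 15150 genes in all. The libraries were made from the prelimbic cortex, a medial prefrontal region, of heterogeneous stock rats, an outbred population, and the series design names genetic analysis of expression as their purpose. Of 164 samples in the labels, 130 have a column in the table, and these fall into 68 libraries whose animal identifier is a decimal number (the decimal series), 51 with a code beginning with E21DCD (the E21DCD series) and 11 whose E21DCD code was reassigned, per the labels. No treatment, genotype, sex or age of these animals is given in the sources used here. Nothing in the labels ties a library to another, so each was taken as 1 rat, and p-values measure the spread between libraries. No sorting of cells is described, so each value stands for all cells of the piece of tissue.

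In a synapse the Dlg proteins (SAP97, PSD-93, SAP102 and PSD-95) lie closest to the membrane, where their PDZ domains hold glutamate receptors and adhesion proteins. Dlgap1 (GKAP) binds the guanylate kinase-like domain of the Dlg proteins and hands the chain on to the Shank proteins, which form the deeper sheet. Homer1 binds Shank and also the group I metabotropic glutamate receptors and inositol trisphosphate receptors, and its short activity-induced form lacks the part that links Homer molecules to each other. By RefSeq's GRCr8 annotation, Dlg1 on chromosome 11 from 82416853 to 82607797, Dlg2 on chromosome 1 from 153864545 to 155916238, Dlg3 on chromosome X from 69899694 to 69951928 and Dlg4 on chromosome 10 from 55239397 to 55267780 are the Dlg genes. The Shank genes are Shank1 on chromosome 1 from 103944416 to 103993887, Shank2 on chromosome 1 from 208575144 to 209020300 and Shank3 on chromosome 7 from 122448323 to 122518623. The other scaffold genes lie on chromosome 2 from 26279012 to 26388279 (Homer1) and on chromosome 9 from 117304144 to 118173463 (Dlgap1).

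The libraries did not form a single population. In 11 libraries, all of the decimal series, Drd2, the dopamine D2 receptor, was between 7.25 and 7.90, against at most 4.65 in the other libraries, on the scale used for all levels here, log2(counts per 1000000 + 1), or log2(CPM + 1). These 11 are called striatal-like. All 10 tested striatal neuron markers, Drd2 among them by definition, were above the cortical range in them and all 9 glutamatergic markers of cortex were below it, with the vesicular glutamate transporter Slc17a7 at 2.75 to 8.83 against 10.43 to 11.20, so that they went against the tissue label. A further 7 libraries (decimal replicate 15 and E21DCD replicates 2, 4, 8, 19, 30 and 49) had Gad2, a GABA-synthesising enzyme, at 2.37 to 4.27, and are called low-Gad2. The remaining 112 (56 decimal, 45 E21DCD and 11 reassigned), with Gad2 at 5.14 to 6.52, are called cortical. Depth, the summed count of a library, was 15.1 to 55.95 in units of 1000000 counts. The sets were defined from measured values, so differences between them are described by ranges and no test is attached. Values are not per transcript length, and levels are therefore compared between libraries for the same gene and not between genes. In whole tissue, fewer cells of a type and less RNA per cell cannot be told apart.

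Dlgap1 and Shank1 were far lower in the striatal-like libraries than in cortex, Dlg1 was higher in all of them, and the largest share of the Shank counts was Shank3's in place of Shank1's. In the low-Gad2 libraries the medians of all 9 scaffold genes were lower than in cortex, though no gene was wholly outside the cortical range. For Dlg3 the overlap with that range rested on a single cortical library. Of all tested genes, 5.15% were wholly above and 7.1% wholly below that range in the striatal-like libraries, and 1.59% and 6.26% in the low-Gad2 libraries. Within cortex the 3 Shank genes and Dlg2 varied together from library to library, and Dlg3 and Dlgap1 moved with the receptors and against glial markers. These were not separate groups in the E21DCD series. There Shank1 and Shank3 also moved with the receptors, and Shank2 and Dlg2 moved with Dlgap1.

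**Figure D1:**
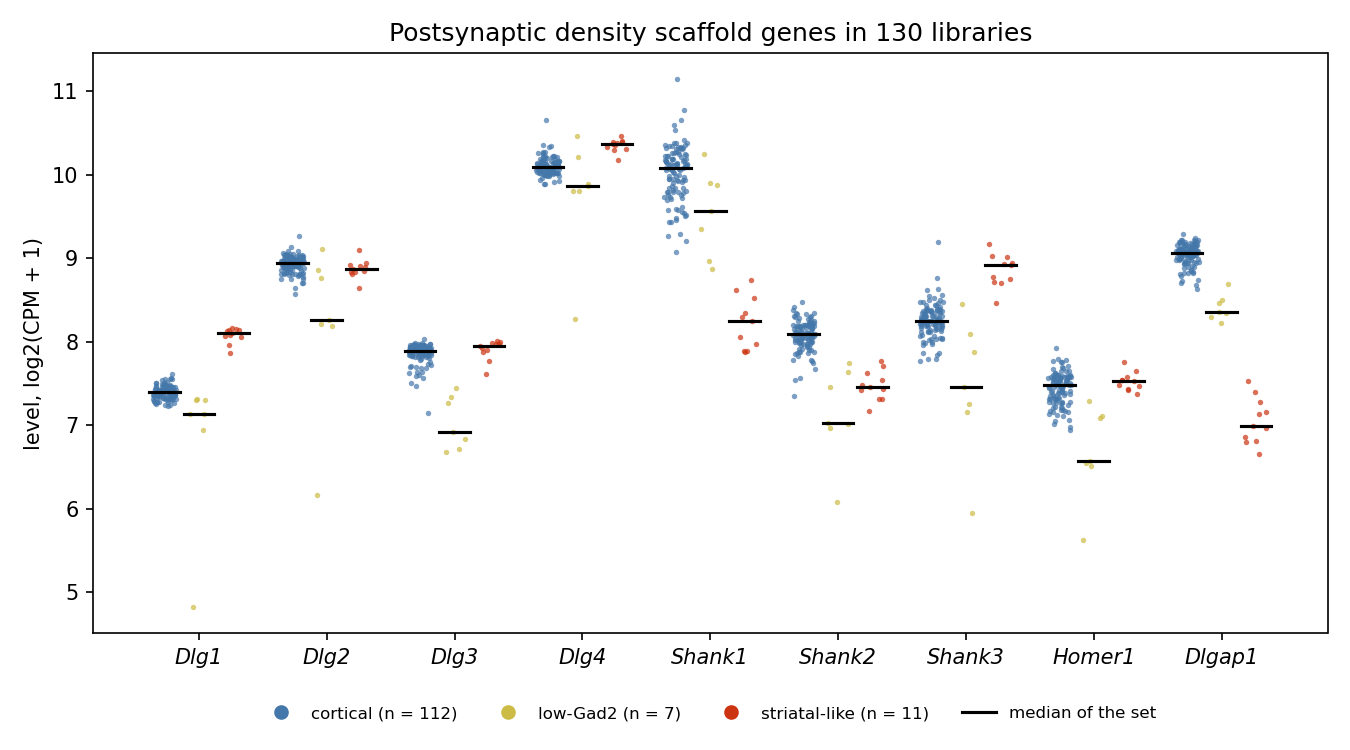
Level of each scaffold gene, as log2(CPM + 1), in the 112 cortical, 7 low-Gad2 and 11 striatal-like libraries; each point is a library and the bar is the median of the set. The striatal-like points lie above the cortical ones for Dlg1 and below them for Shank1 and Dlgap1, and the single low-Gad2 point under 5 for Dlg1 is decimal replicate 15.

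Among the membrane-proximal scaffolds, Dlg1, which encodes SAP97, ran from 7.23 to 7.61 with a median of 7.39 in cortical libraries and from 7.87 to 8.17 with a median of 8.10 in striatal-like ones. The ranges did not touch, and the medians differed by 0.71, or 1.64-fold. Dlg2, which encodes PSD-93, was at 8.57, 8.94 and 9.26 (lowest, median, highest) in cortex and at 8.64, 8.87 and 9.09 in the striatal-like set, wholly inside the cortical range. Dlg3, which encodes SAP102, was likewise inside it, at 7.61, 7.95 and 8.00 against 7.14, 7.88 and 8.03. Dlg4, which encodes PSD-95, was at 10.17, 10.36 and 10.46 against 9.88, 10.09 and 10.65. The striatal-like libraries lay in the upper part of the cortical range. Its highest cortical value was that of decimal replicate 7. The next highest, of decimal replicate 8, was 10.355, against a striatal-like median of 10.361. Of the summed Dlg counts Dlg1 took 11.1 to 12.9% in the striatal-like libraries (median 11.9%) and 6.65 to 9.94% in cortex (median 8.43%), without overlap, while the shares of Dlg2, Dlg3 and Dlg4 overlapped. These shares, and those below, are of counts, not per length, and were chosen after the levels were seen.

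Dlgap1 showed the widest separation of the 9 genes. It was at 8.63, 9.06 and 9.29 in cortex and at 6.65, 6.99 and 7.53 in the striatal-like libraries, a difference of medians of -2.07, or 0.24 of the cortical level. Every striatal-like library was below every cortical library. Of its 3 paralogues Dlgap3, the member known for its high expression in striatum, was at 8.97, 9.17 and 9.40 in the striatal-like libraries against 8.10, 8.52 and 9.32 in cortex, higher in median but overlapping. Dlgap2 (medians 7.19 and 7.13) and Dlgap4 (8.31 and 8.36) differed little between these sets. The ratio of Dlg1 to Dlgap1 counts, on the log2 scale, was -1.99, -1.68 and -1.09 in cortex and 0.47, 1.13 and 1.43 in the striatal-like set, with no overlap between the sets.

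**Figure D2:**
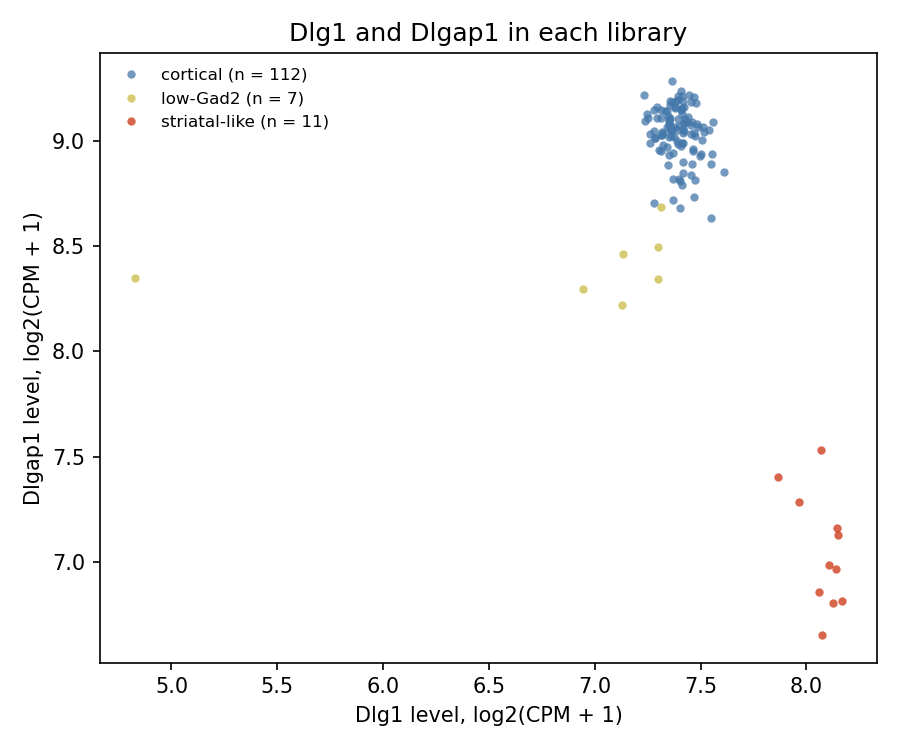
Dlgap1 level against Dlg1 level, both as log2(CPM + 1), 1 point per library, coloured by library set. The 11 striatal-like libraries occupy a corner of their own with high Dlg1 and low Dlgap1, and 6 of the 7 low-Gad2 libraries lie below every cortical one on the Dlgap1 axis.

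Of the deep scaffolds, Shank1 was at 9.07, 10.08 and 11.14 in cortex and at 7.87, 8.24 and 8.73 in the striatal-like libraries, 0.28 of the cortical level by the medians. The highest striatal-like library was below the lowest cortical one. Shank2 was also lower in median, at 7.16, 7.46 and 7.77 against 7.34, 8.09 and 8.48, but only 3 of the 11 libraries were below the cortical range. Shank3, the Shank most associated with striatal synapses, was at 8.47, 8.91 and 9.16 against 7.77, 8.25 and 9.19. Its striatal-like median was 1.58-fold the cortical one, and the ranges overlapped. The highest cortical value was that of decimal replicate 7. The next highest, of decimal replicate 62, was 8.76, below the striatal-like median. Expressed as shares of the summed Shank counts, Shank1 had a median of 64.7% (56.8 to 71.5%) in cortex and 31.9% (27.2 to 38.7%) in the striatal-like libraries. Shank3 had 18.7% (14.9 to 23.1%) and 51.1% (43.7 to 52.8%). Neither gene's shares overlapped between the sets. The share of Shank2 overlapped, with medians of 16.7% and 19.3%.

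**Figure D3:**
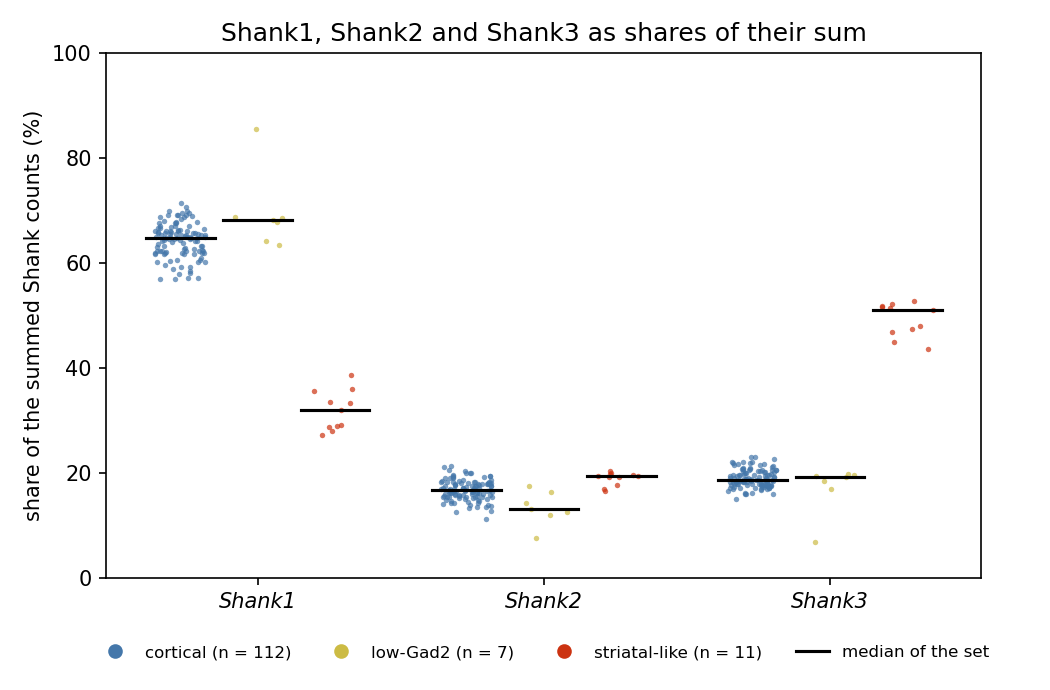
Shares of Shank1, Shank2 and Shank3 in the sum of their counts (%), 1 point per library, with the median of each library set as a bar. By counts, not per length, Shank1 is the largest share in every cortical library and Shank3 in every striatal-like one, with medians of 64.7% and 51.1%.

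Homer1, which links Shank to receptors, was not set apart. It was at 6.95, 7.48 and 7.92 in cortex and at 7.38, 7.53 and 7.75 in the striatal-like libraries, which were all inside the cortical range. Its paralogue Homer2 was at 5.14, 5.86 and 6.37 in cortex and at 3.40, 3.70 and 4.40 in the striatal-like libraries, without overlap and with a difference of medians of -2.17.

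Counted together, 1 of the 9 genes was wholly above the cortical range in the striatal-like libraries and 2 were wholly below it, where 5.15% and 7.1% of all tested genes were. Median-of-ratios scaling gave the same counts. The median difference of the 9 genes was 0.05 and that of all tested genes 0.04. Among 21 related scaffolds 1 was wholly above (Baiap2, an actin-regulating partner of Shank and PSD-95, 8.84 to 9.27 against 7.78 to 8.44) and 2 wholly below (Homer2 and Magi3). Among 8 enzymes of the density, Camk2b, the beta subunit of CaM kinase II, was above (10.05 to 10.54 against 9.25 to 9.68), and Kalrn, Iqsec2 and Camk2a were below, Camk2a at 10.75 to 11.19 against 11.48 to 12.50. Of 11 receptor subunits and receptor-anchoring subunits, the AMPA receptor subunit Gria3 and the auxiliary subunit Cacng2 were below and none was above. None of 5 adhesion genes was wholly on either side. At the inhibitory postsynapse, Gphn, the gephyrin scaffold, was above (6.42 to 6.74 against 5.61 to 6.18).

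Oligodendrocyte markers averaged 9.12 to 9.93 in the striatal-like libraries and 5.73 to 9.83 in cortex, where 4 of the 112 cortical libraries reached the lowest striatal-like value and 1 striatal-like library was above all of cortex. The part of myelin-forming cells in the levels above was not tested.

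The bases just before the start of Dlg1, Shank3 and Homer1 are given because the table's position for these 3 genes is the start site of a RefSeq promoter window (build GRCr8). A further reason is that they differ in how the striatal-like libraries lay against cortex. The level was wholly above for Dlg1. For Shank3 the share was wholly above, and the level was higher in median but overlapping. Homer1 was not separated. Shank1 and Dlgap1, the genes wholly below cortex, are not shown. RefSeq windows were found for 6 of the 9 genes. Each sequence is 250 bases long, reads 5′ to 3′ on the gene's strand and ends at the base before the start, and capitals mark CpG dinucleotides.
Dlg1, chr11:82607798-82608047, minus strand: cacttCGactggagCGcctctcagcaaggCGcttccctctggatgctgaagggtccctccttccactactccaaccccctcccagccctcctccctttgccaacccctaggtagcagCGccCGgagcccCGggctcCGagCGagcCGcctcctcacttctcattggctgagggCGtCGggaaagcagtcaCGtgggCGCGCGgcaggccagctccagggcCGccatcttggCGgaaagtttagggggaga
Shank3, chr7:122448073-122448322, plus strand: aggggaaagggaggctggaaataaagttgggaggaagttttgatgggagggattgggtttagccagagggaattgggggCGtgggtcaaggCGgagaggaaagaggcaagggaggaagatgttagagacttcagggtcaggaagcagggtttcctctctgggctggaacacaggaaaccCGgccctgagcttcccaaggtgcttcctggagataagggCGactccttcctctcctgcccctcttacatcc
Homer1, chr2:26278762-26279011, plus strand: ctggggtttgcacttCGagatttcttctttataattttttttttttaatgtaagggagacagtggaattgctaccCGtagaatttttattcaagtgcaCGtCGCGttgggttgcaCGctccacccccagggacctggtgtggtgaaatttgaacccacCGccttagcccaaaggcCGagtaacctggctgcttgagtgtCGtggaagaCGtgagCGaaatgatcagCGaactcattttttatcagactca
The Dlg1 window had 66.4% G plus C and 17 CpG, the Shank3 window 56% and 4 CpG, and the Homer1 window 46.4% and 12 CpG, against medians of 51.2% and 5 CpG over 33469 windows of the same length. Of 3 motifs searched on both strands, the E-box CACGTG occurred in the Dlg1 window, 62 bases before the start, and in 5.59% of all windows. The GC box GGGCGG (30.5% of all windows) and the cyclic AMP response half-site TGACG (18.2%) had no match in these 3. A match is a description of letters.

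The low-Gad2 libraries held less of every scaffold RNA by their medians. They had a median of 22800 genes above 0 (lowest 20516), against a cortical median of 24218.5, and their most abundant gene took a median of 0.87% of counts against 0.43%. The part of either measure in these levels was not tested. The largest gaps to cortex were those of Shank2 (6.09, 7.03 and 7.74, a median difference of -1.06), Dlg3 (6.68, 6.92 and 7.44, -0.97) and Homer1 (5.63, 6.57 and 7.29, -0.91). Without decimal replicate 15 Dlg3 had the largest gap of the 9, at -1.005, or 0.498 of the cortical median level. Shank2 followed at -0.85, and Homer1 and Dlgap1 were both at -0.65. Shank3 was at 5.95, 7.45 and 8.45, and Dlgap1 at 8.22, 8.35 and 8.69, with 6 of 7 libraries below the cortical range. For 7 of the 9 genes, Shank1 and Dlgap1 excepted, 4 of the 7 libraries were below the lowest cortical one; for Shank1, 2 were. With median-of-ratios scaling the count for Dlg4 was 1 of 7 (0 without decimal replicate 15) and that for Dlgap1 was 5 of 7. The gap of Shank1 was then -0.22 where it had been -0.51. Dlg3 in decimal replicate 15 was at 8.16 with that scaling, above the highest cortical value of 8.04. The smallest gaps were those of Dlg1 (4.83, 7.13 and 7.31, -0.26) and Dlg4 (8.27, 9.87 and 10.46, -0.22). Dlg2 was at 6.16, 8.26 and 9.11, and Shank1 at 8.87, 9.57 and 10.24. The ranges of all 9 genes overlapped those of cortex: 0 were wholly above and 0 wholly below, where 1.59% and 6.26% of all tested genes were. Those shares are 241 genes above and 949 below. They became 553 and 627 with median-of-ratios scaling, and 480 and 984 without decimal replicate 15. On the main scaling the overlap of Dlg3 rested on a single cortical library, decimal replicate 7, at 7.14. The next lowest cortical library, decimal replicate 5, was at 7.47, above the highest low-Gad2 value of 7.44.

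The median difference of the 9 genes was -0.70, and that of all tested genes was -0.12, with 59.5% of genes lower. With median-of-ratios scaling the 9 genes were at -0.60 and all tested genes at -0.014, with 51.1% lower. Decimal replicate 15 was the lowest low-Gad2 library for 6 of the 9 genes, and in it 15.1% of all counts came from a single gene, Zfp532. Without it the median difference of the 9 genes was -0.58 and all 9 medians were still lower, while the gap of Dlg2 went from -0.68 to -0.43. The 7 libraries were not uniform. E21DCD replicate 19 had Dlg4 at 10.46, Shank1 at 10.24, Shank3 at 8.45 and Dlg2 at 9.11, all above the cortical medians, together with the lowest Dlg3 of all 130 libraries, 6.68. E21DCD replicate 4 had Shank1 at 8.87 and Shank3 at 7.16 but Dlg3 at 7.44, the highest of the set.

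Several other genes of the excitatory synapse also had lower medians in these 7 libraries. Lrrc7 (densin-180) was at 4.61, 5.49 and 6.12 against a cortical median of 7.45, and the NMDA receptor subunits Grin2a and Grin2b had medians that differed from cortex by -1.67 and -1.71. Magi1 and the exchange factor Kalrn were wholly below cortex, Kalrn at 6.87 to 8.36 against 8.48 to 9.25. Cript, which binds a PDZ domain of PSD-95, and the dynein light chain Dynll1, a partner of Dlgap1, had higher medians, by 0.77 and 0.76. Glutamatergic markers were not lower as a list, with a mean level of 5.36, 6.92 and 7.10 against 6.39, 6.82 and 7.01. The other interneuron markers did not all follow Gad2, whose median differed by -3.33. Gad1 (-0.46), Lhx6 (-0.56), Adarb2 (-0.90) and Erbb4 (-1.05) were lower in median. Slc32a1 (-0.08), Dlx1 (-0.02) and Vip (-0.005) differed little, and Sst (0.78) and Pvalb (0.81) were higher. Oligodendrocyte markers averaged 6.74, 8.11 and 8.55 against 5.73, 7.28 and 9.83, and their part in these levels was not tested.

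Within the 112 cortical libraries the genes differed in how much they varied. Each SD was divided by the trend of the SD on the mean over all tested genes. Shank1 had an SD of 0.33 and a ratio of 2.38, higher than 97.1% of tested genes, and spanned 2.07 log2 units. Shank3 (ratio 1.40), Homer1 (1.34) and Shank2 (1.26) were also above the trend. Dlg1 was at the other end, with an SD of 0.08 and a ratio of 0.53, and only 0.77% of tested genes had a lower one. Dlg2 (0.71), Dlg4 (0.75), Dlg3 (0.88) and Dlgap1 (0.91) were below the trend. Thus 4 of 9 genes were above it, against 48.2% of all tested genes. With the low-Gad2 libraries included 7 were, against 48.99% of all tested genes.

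The library-to-library variation was shared among the Shank genes. Over the 112 libraries and all 36 pairs, 18 pairs were positively and 6 negatively correlated (Pearson's r, 100000 permutations, Benjamini-Hochberg adjusted p under 0.05). How many pairs of all tested genes pass was not computed, so these counts cannot be read as particular to the scaffold genes. An absolute r of 0.21 was enough to pass (Dlg1 with Dlg3). With all tested genes, the median absolute r was 0.11 for Dlg1, and from 0.20 (Dlg2) to 0.29 (Dlg3) for the other scaffold genes. The closest pair was Shank1 and Shank3, with r = 0.84 and rho = 0.75 (adjusted permutation p = 2.8e-05 for r). It held within the decimal series (r = 0.85), within the E21DCD series (r = 0.86) and without the 2 libraries farthest from the median of Shank1 (r = 0.81). Shank2 went with Shank3 (r = 0.75, rho = 0.70), with Shank1 (r = 0.72, rho = 0.65) and with Dlg2 (r = 0.76, rho = 0.69), each with an adjusted permutation p of 2.8e-05 and, without 2 libraries, r of 0.73, 0.68 and 0.72. Dlg4 went with Shank3 (r = 0.65, rho = 0.55) and Shank1 (r = 0.62, rho = 0.52), both at 0.55 without 2 libraries. The 18 positive pairs kept their sign in both series.

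Dlg3, Dlgap1 and Homer1 were also positively correlated with each other, but not apart from the rest. Dlg3 and Dlgap1 had r = 0.67 (rho = 0.54, 0.66 in the decimal and 0.68 in the E21DCD series, 0.62 without 2 libraries), and Homer1 and Dlgap1 had r = 0.59 (rho = 0.50, 0.73 and 0.42 in the series, 0.56 without 2 libraries), both with an adjusted permutation p of 2.8e-05. Homer1 and Dlg3 had r = 0.42 (rho = 0.40), less than Shank2 with Homer1 (r = 0.50, rho = 0.51) and with Dlgap1 (r = 0.48, rho = 0.45). In the E21DCD series Shank2 with Dlgap1 was at 0.72, Dlg2 with Dlgap1 at 0.64 and Dlg3 with Shank2 at 0.62. Dlg1 had no positive partner past the threshold, and its absolute r was at most 0.21.

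The 6 negative pairs did not hold in both series. Dlg3 and Dlg4 had r = -0.49 (rho = -0.08, adjusted permutation p = 5.1e-05 for r), with r = -0.69 in the decimal series, r = 0.27 in the E21DCD series and r = -0.26 without 2 libraries. Dlg3 and Shank3 had r = -0.41 (rho = -0.12), with -0.65 and 0.38 in the series and -0.24 without 2 libraries. Dlg3 with Shank1 (r = -0.32) and Dlg4 with Dlgap1 (r = -0.24), and Dlg1 with Dlgap1 and with Dlg3 (r = -0.21 each), were also negative in the decimal and positive in the E21DCD series. The difference between the series was not tested, and by rho only Dlg1 with Dlg3 passed among negative pairs.

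Decimal replicate 7 sat at the edge of the cortical set for 6 of the 9 genes. It had the lowest cortical Dlg3, 7.14, and the highest Dlg4 (10.65), Shank1 (11.14), Shank3 (9.19), Dlg2 (9.26) and Shank2 (8.48). Its astrocyte and microglial marker means, 9.00 and 5.83, were the highest of the set, and its glutamatergic and interneuron marker means, 6.39 and 5.43, the lowest. Without it r of Dlg3 and Dlg4 was -0.31, that of Dlg3 and Shank3 -0.23, and that of Shank1 and Shank3 0.82; 20 positive and 4 negative pairs passed.

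**Figure D4:**
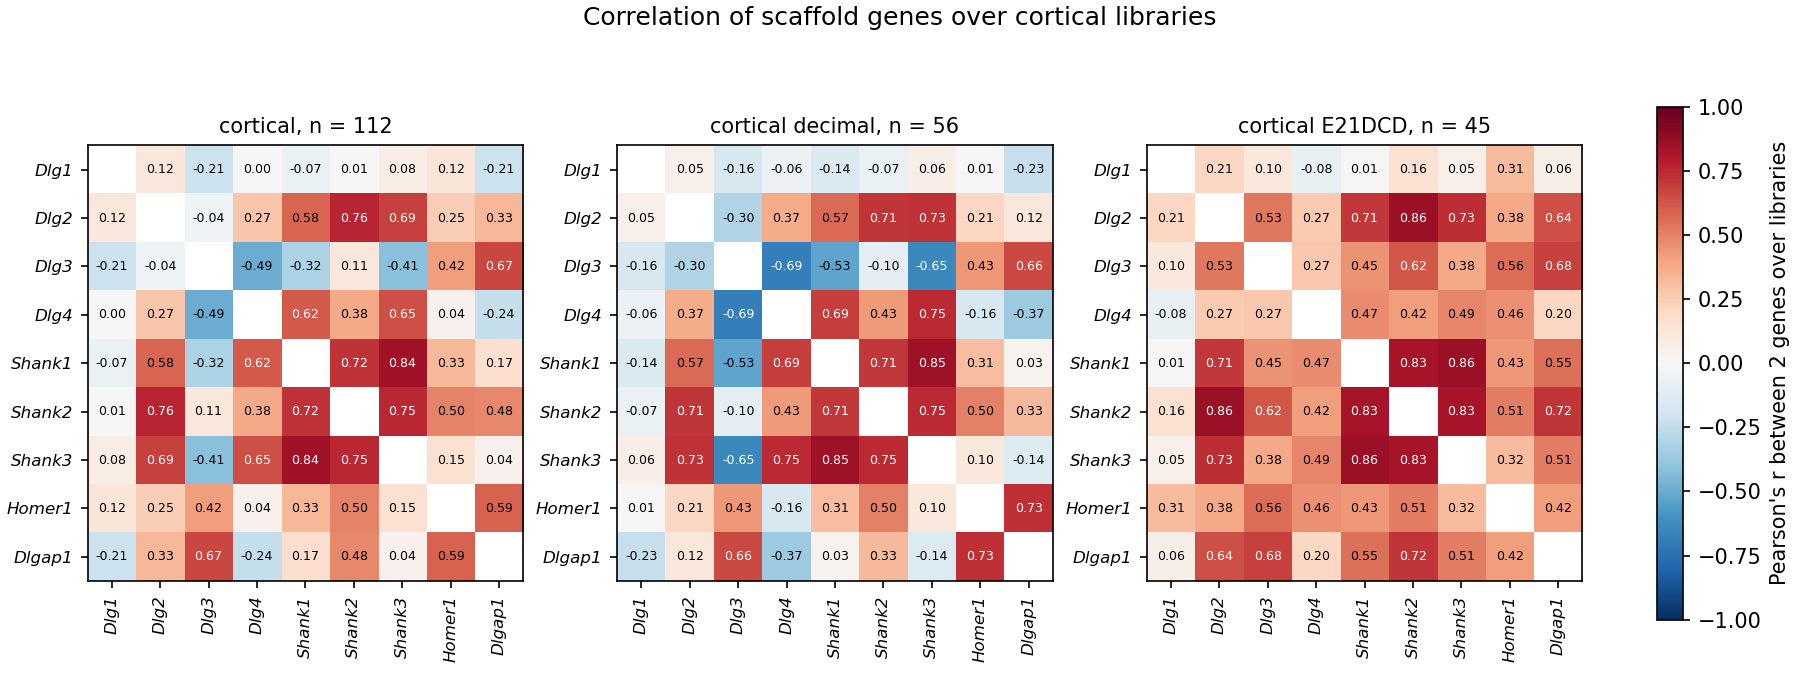
Pearson's r between scaffold genes over the 112 cortical libraries (left), the 56 of the decimal series (middle) and the 45 of the E21DCD series (right), red for positive and blue for negative. The block of Shank genes with Dlg2 is red in all 3 panels. The row of Dlg3 changes colour between the series against Dlg1, Dlg2, Dlg4 and the Shank genes.

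The scaffold genes were also set against the lists of partner and marker genes. Of 135 relations of the 9 genes with 14 list means and depth, 47 were positive and 28 negative at the same threshold. With median-of-ratios scaling these were 57 and 18, and with the low-Gad2 libraries included 82 and 14. The share of all tested genes that pass against the same lists was not computed, so these counts cannot be read as particular to the scaffold genes. Dlg3 moved with the anchored receptors (r = 0.84, rho = 0.73) and the adhesion genes (r = 0.83, rho = 0.68), and ran against the astrocyte (r = -0.82, rho = -0.60), oligodendrocyte (r = -0.78, rho = -0.75) and microglial (r = -0.77, rho = -0.50) means, each with an adjusted permutation p of 3.4e-05. Without 2 libraries these were 0.80, 0.76, -0.76, -0.76 and -0.71. The astrocyte relation was -0.88 in the decimal and -0.43 in the E21DCD series, and the oligodendrocyte relation -0.77 and -0.74. The part of glial content in the relations between scaffold genes was not tested.

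Dlgap1 had r = 0.85 with the anchored receptors (rho = 0.80, 0.83 in each series, 0.83 without 2 libraries), r = 0.81 with the adhesion genes (rho = 0.79) and r = -0.65 with the oligodendrocyte mean (rho = -0.55), at the same adjusted permutation p. The Shank genes went with the enzymes of the density: Shank2 at r = 0.90 (rho = 0.89, 0.91 and 0.90 in the series, 0.88 without 2 libraries), Shank1 at 0.76 (rho = 0.68) and Shank3 at 0.75 (rho = 0.70). With the anchored receptors Shank1 and Shank3 had r of 0.06 and -0.06, from -0.19 and -0.33 in the decimal series to 0.66 and 0.59 in the E21DCD series.

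Homer1 went with the glutamatergic markers (r = 0.59, rho = 0.57, adjusted permutation p = 3.4e-05) and not detectably with the immediate early genes (r = 0.12, rho = 0.12, adjusted permutation p = 0.28, r = 0.14 and 0.16 in the series), although its short form is itself induced by activity. The table gives 1 value for the gene, so the short and long forms are not separated. Relations with log2 depth were weak, with r of -0.23 to 0.20, and that of Dlg3 (r = -0.23, adjusted permutation p = 0.036) was the 1 that passed.

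For each gene the tested genes outside the 9 with the highest r over the 112 libraries were listed, as a description of libraries that share tissue makeup and depth. Dlg4 was closest to Ppp1r9b (spinophilin, a spine scaffold, r = 0.90) with Brsk1 and Dact3 next. Shank3 was closest to Ttbk1 (0.89), Mllt6 and Agap2, Shank1 to Ctnnd2 (delta-catenin, 0.86), Agap2 and Prrc2a, and Shank2 to Iqsec2 (an Arf exchange factor of the density, 0.85), Atxn1 and Itsn1. Dlg2 was closest to Itpr1 (an inositol trisphosphate receptor, 0.85), Ppp1r12b and Psd3. Dlg3 was closest to Cadm3 (a synaptic adhesion protein, 0.89), Syn2 and Dpp10, and Dlgap1 to Scn2a (a sodium channel, 0.86) and Rasgrf1. Homer1 was closest to Nlk (0.87), Cacnb4 and Rock2. For Dlg1 the highest values were 0.46, 0.46 and 0.45, with Picalm, Ugp2 and Eif4g2. Some of these were weaker in the E21DCD than in the decimal series: Cadm3 with Dlg3 (0.58 and 0.93), Brsk1 with Dlg4 (0.68 and 0.92) and Picalm with Dlg1 (0.28 and 0.45). Others were not, such as Itpr1 with Dlg2 (0.91 and 0.79).

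The labels divide the libraries by identifier series and set the reassigned ones apart. The scaffold differences between the decimal and E21DCD series depended on which libraries were included. Over all libraries, decimal minus E21DCD (68 against 51), Dlgap1 was lower in the decimal series, 8.67 ± 0.74 against 9.00 ± 0.25 (mean ± SD), by -0.33 with an SE of 0.11 (limma, adjusted p = 0.015), and it was the 1 of 9 genes that passed, where 27.6% of all tested genes did. The 11 striatal-like libraries are all decimal. Without them (57 against 51) none of the 9 passed, where 8.77% of all genes did, and Dlgap1 differed by -0.02 with an SE of 0.04 (limma, adjusted p = 0.87). The widest 95% interval of the 9 in that fit was that of Shank1, from -0.10 to 0.18.

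Without the low-Gad2 libraries as well (56 against 45), the spread was smaller and 3 of the 9 passed, where 34.2% of all genes did. Dlg3 was lower in the decimal series, 7.81 ± 0.15 against 7.90 ± 0.07, by -0.09 with an SE of 0.02 (limma, adjusted p = 0.0038). Dlgap1 was lower by -0.08 with an SE of 0.03 (limma, adjusted p = 0.0083). Dlg1 was higher by 0.04 with an SE of 0.02 (limma, adjusted p = 0.027), a call lost with median-of-ratios scaling (limma, adjusted p = 0.072). The Dlg3 difference had been 0.03 over all libraries. The Shank genes, Dlg2, Dlg4 and Homer1 did not pass. In the same fit 8 of 11 anchored receptors were lower and 1 higher, Cacng2 by 0.08, with the largest difference in Grin2b, -0.26 with an SE of 0.08. Of 5 adhesion genes 4 were lower, Nlgn3 by the most (-0.14). Of 21 related scaffolds 7 were lower, Magi3 by the most (-0.17), and 2 higher, Homer3 by the most (0.14). Of 8 enzymes 3 were lower, Kalrn (-0.12) and Sipa1l1 (-0.10) among them.

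All 10 oligodendrocyte markers were higher in the decimal series in that fit, by a median of 0.74, as were 5 of 8 astrocyte and 5 of 6 microglial markers. With the oligodendrocyte mean as a covariate Dlg3 differed by 0.0067 with an SE of 0.02, Dlgap1 by -0.0017 with an SE of 0.02 and Dlg1 by 0.03 with an SE of 0.02. None of the 9 passed, where 6.11% of all tested genes did.

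**Figure D5:**
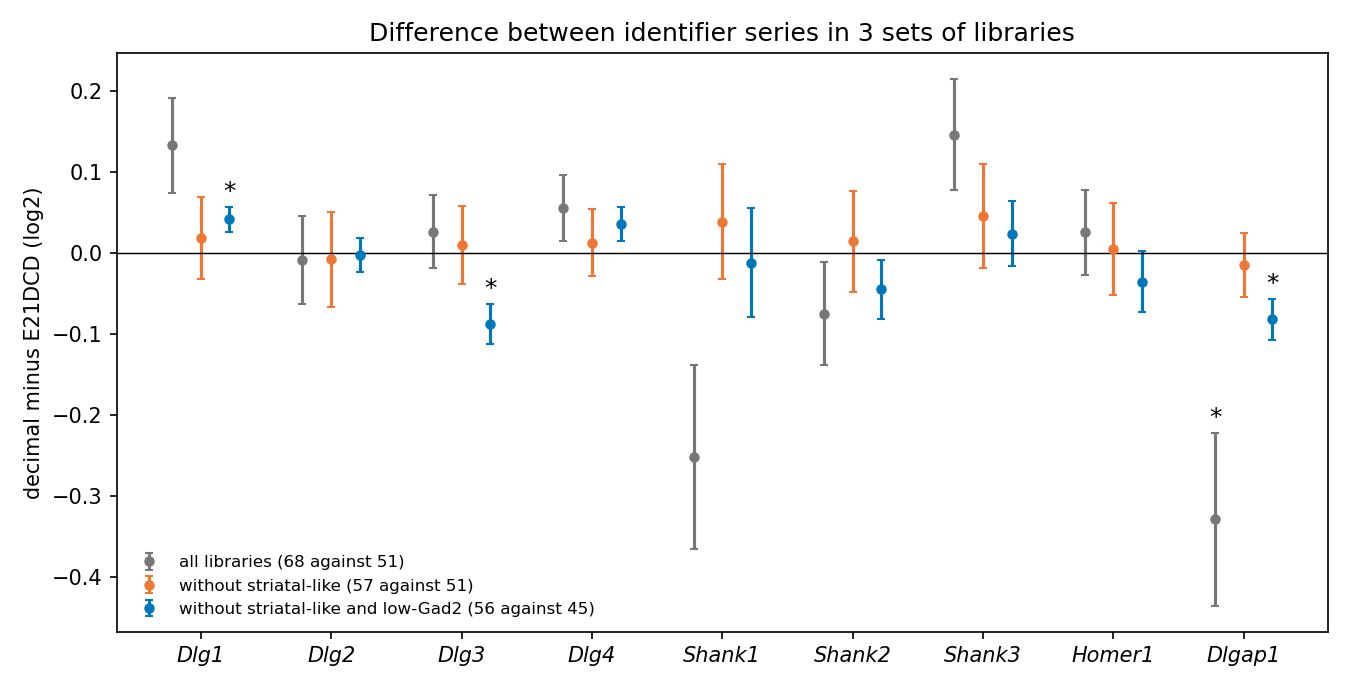
Decimal minus E21DCD difference of each scaffold gene (log2) with its SE as the bar, in 3 sets of libraries; an asterisk marks an adjusted p under 0.05 by limma. Dlgap1 is at -0.33 with all libraries, -0.02 without the striatal-like ones and -0.08 without the low-Gad2 ones as well.

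Between the 11 reassigned and the 51 other E21DCD libraries none of the 9 genes passed, and 0% of all tested genes did; 634 genes had an unadjusted limma p under 0.05. The differences ranged from -0.08 for Shank1 to 0.11 for Dlg3. Without the low-Gad2 libraries they ranged from -0.14 for Shank1 to 0.01 for Dlg3.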

How the data were processed

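RNA of the prelimbic cortex had been sequenced, and 1 table of the authors was used, with 38354 genes in 130 libraries. Of the 164 samples in the labels, 33 that lacked a genotype match and 1 more removed sample were not analysed here. Reads were quantified with kallisto 0.48, per the submitters' processing notes. The deposited unit was read from the values as log2 of an estimated count to which 1 had been added, not scaled for depth. Values were returned to counts, scaled to 1000000 per library, and put on a log2 scale after adding 1. The 15150 genes with a mean of at least 1 entered the tests. Cortical libraries had Drd2 at 6 or below and Gad2 at 4.7 or above. All of the 38278 positions that could be compared (100%) are gene ends in RefSeq's GRCr8 annotation. The build is not given in the sources used here.

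Because the deposited unit is log2, the identifier series were compared with limma 3.58.1 (R 4.3.3; two-sided, with a mean-variance trend) and p-values were adjusted over all tested genes by the Benjamini-Hochberg method, with 0.05 as the threshold. Correlations had 100000 permutations of libraries, for which 1e-05 is the smallest unadjusted p. The 2 libraries left out of some correlations were those farthest from the median of 1 variable only. That was the gene named earlier in the opening list of the 9, or the list mean. Extremes of the other variable were kept. The trend of the SD was a lowess (frac 0.3). Other steps ran in Python 3.11.15 (statsmodels 0.14.6, scipy 1.17.1, pandas 2.3.3, numpy 2.4.6). The tests were tested on simulated data. Alternatives were other scaling, pseudocount (0.1), filters, covariates and subsets of libraries. The 9 genes were named in full. From the fixed lists (131 genes, 130 in the table, 129 tested) the genes with the largest difference each way and defining markers were named, and for each scaffold gene the 3 with the highest r. A few genes that this rule covers are not reported here. Other genes were named after their values were seen. The members and lists were chosen with earlier results of these data known.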

Additional observations from a re-analysis of the deposited data

How the results depend on the processing

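Over all libraries 1 scaffold gene passed between the decimal and the E21DCD series. The count was 0 without the striatal-like libraries (also with median-of-ratios scaling), 3 without these and the low-Gad2 libraries, 2 there with median-of-ratios scaling, and 0 there with the oligodendrocyte mean as a covariate. It was 2 with median-of-ratios scaling, 2 with log2 depth as a covariate (Shank1 passed, at -0.30) and 2 with the reassigned libraries added to E21DCD (Dlg1 passed, at 0.14). A mean of at least 3, no filter and a pseudocount of 0.1 left the count at 1. Of all tested genes, 35.2% passed without both sets under median-of-ratios scaling and 6.11% there with the oligodendrocyte covariate; over all libraries the share was 30% with median-of-ratios scaling, 30.5% with log2 depth as a covariate, 31.4% with the reassigned libraries added, 28.5% with a mean of at least 3, 11.5% with no filter and 27.2% with a pseudocount of 0.1.

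Small differences changed sign. Without the striatal-like libraries Shank1 was at 0.0390 and Shank2 at 0.0144 (0.0388 and 0.0142 with median-of-ratios scaling). Without the low-Gad2 libraries as well, Dlg3 was at -0.0876 and Homer1 at -0.0354 (-0.0945 and -0.0424 with median-of-ratios scaling), and with the oligodendrocyte mean as a covariate Dlg2 was at 0.0149, Shank2 at 0.0078 and Shank3 at -0.0025. For the reassigned libraries without the low-Gad2 ones, Dlg2 was at -0.0159, Shank2 at -0.0916 and Dlgap1 at -0.00031, and Shank2 was at -0.0192 with median-of-ratios scaling. The cause was not tested. With the low-Gad2 libraries included 7 scaffold genes were above the trend of the SD, against 4, where 48.99% of all tested genes were, against 48.2%.

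The 24 correlated pairs were 19 by rho, 28 (26 positive) with median-of-ratios scaling, 33 with the low-Gad2 libraries (all positive), 21 in the decimal and 25 in the E21DCD series. The sets without striatal-like libraries and median-of-ratios scaling together, and those without decimal replicate 7 or 15, were chosen after the data were seen. With median-of-ratios scaling, library medians over all genes shifted by -0.09 to 0.85. No paired analysis was possible because the replicate numbers name libraries in accession order and pair nothing.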
